A study of Mus musculus with 4 samples.

Results

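The genes described are the ATP-dependent chromatin remodellers of the SWI/SNF, ISWI, CHD and INO80 families, with the ARID proteins. They are all genes of the expression table whose symbol begins with Smarc, Ino80, or Chd or Arid followed by a digit. This rule uses no measured value and gave 38 of 15429 genes, but it was chosen with earlier results of these data known. The measurements came from mouse epiblast stem cells, which are pluripotent cells derived from the embryo after implantation. The line was OE7, which carries the Oct4-Gip transgene, a green fluorescent reporter of Oct4, and it was used at passages 21 to 25. All cells were kept on fibronectin in N2B27 medium that held Fgf2 at 12 ng/ml and Activin A at 20 ng/ml. There were 2 groups, each of 2 libraries of polyadenylated RNA. Control cells received 1000 ng of Luc esiRNA, a mixture of short double-stranded RNAs against luciferase, and the others received 1000 ng of Tox4 esiRNA, both with 2 µl of lipofectamine. All libraries came from 1 cell line, and nothing in the labels states that replicates are independent cultures. The p-values therefore rest on a spread between libraries that may be technical.

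Remodellers use ATP to slide, evict or exchange nucleosomes. The BAF complex, the mammalian SWI/SNF, is built around 1 of the ATPases Smarca4 (Brg1) and Smarca2 (Brm), with paralogs also competing for several other places, and embryonic stem cells are known for a form rich in Smarca4, Smarcc1 and Arid1a. ISWI complexes (Smarca5, Smarca1) space nucleosomes, Chd4 and Chd3 are ATPases of the NuRD deacetylase complex, and INO80 exchanges histone variants and acts in replication and repair.

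Tox4, the target, fell from 16.7 and 17.5 FPKM in Luc replicates 1 and 2 to 8.65 and 8.89 FPKM in Tox4 replicates 1 and 2. FPKM are fragments counted per gene, scaled by the gene's length and the library's depth. The ratio of the group means was 0.512, which is -0.89 ± 0.05 (SE) on the log2 scale used for testing, with an adjusted p of 0.00228 in limma. The exons of Tox4 share 1128 bases with Mettl3 and Rab2b on the opposite strand, and the use of strand in counting is not given. Reads worked back from the FPKM values totalled 12778044 to 19008803 per library. The epiblast stem cell markers Pou5f1 (582 to 613 FPKM), Nanog (193 to 204 FPKM), Otx2 (29.7 to 34.8 FPKM) and Fgf5 (37.6 to 41.5 FPKM) were present in all 4 libraries. Of the 8 epiblast markers tested, 7 did not pass and Sox2, also a gene of neural progenitors, rose from 76.3 and 76.4 FPKM with Luc to 93.2 and 87.6 FPKM with Tox4 (limma adjusted p = 0.0355). Sox2 also passed in limma-voom (adjusted p = 0.000713) but not in limma with no filter on low values (adjusted p = 0.0558). Mitochondrial transcripts took 0.864% and 0.840% of reads with Luc esiRNA and 1.05% in both Tox4 libraries, without overlap, and their part in the results was not tested. Of 7 fibroblast markers, 3 reached a mean of 1 FPKM. The summed level of all 7 was 11.9 and 12.1 FPKM in the Luc libraries and 11.2 and 13.1 FPKM in the Tox4 libraries.

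The sequences just before the start sites of 4 of these genes are shown as examples from high and low levels of transcript. RefSeq promoter sequences (GRCm38.p6) were matched for 28 of the 38 genes, and the 250 bases before the start site were read. Each is printed 5′ to 3′ with CpG dinucleotides in capitals. Chd4 and Smarca4 are the most abundant ATPase genes of the set, and Chd5 and Arid3c are among the least abundant.
Chd4, plus strand, chr6:125095731-125095980: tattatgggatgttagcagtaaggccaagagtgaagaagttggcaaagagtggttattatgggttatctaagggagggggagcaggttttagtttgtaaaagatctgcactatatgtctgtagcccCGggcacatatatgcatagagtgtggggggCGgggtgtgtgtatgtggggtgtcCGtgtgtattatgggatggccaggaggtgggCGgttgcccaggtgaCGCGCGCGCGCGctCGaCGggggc
Smarca4, plus strand, chr9:21615919-21616168: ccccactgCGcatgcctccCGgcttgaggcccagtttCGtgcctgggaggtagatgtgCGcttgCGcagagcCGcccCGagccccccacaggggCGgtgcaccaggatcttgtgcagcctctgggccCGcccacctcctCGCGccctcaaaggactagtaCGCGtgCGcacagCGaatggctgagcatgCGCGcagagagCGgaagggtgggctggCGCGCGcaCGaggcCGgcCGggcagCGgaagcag
Chd5, plus strand, chr4:152338401-152338650: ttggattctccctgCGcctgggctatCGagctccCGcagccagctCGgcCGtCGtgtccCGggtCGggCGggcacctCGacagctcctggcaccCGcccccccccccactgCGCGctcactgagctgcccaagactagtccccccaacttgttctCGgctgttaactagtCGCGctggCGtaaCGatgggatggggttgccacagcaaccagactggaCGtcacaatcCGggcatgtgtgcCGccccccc
Arid3c, minus strand, chr4:41731143-41731392: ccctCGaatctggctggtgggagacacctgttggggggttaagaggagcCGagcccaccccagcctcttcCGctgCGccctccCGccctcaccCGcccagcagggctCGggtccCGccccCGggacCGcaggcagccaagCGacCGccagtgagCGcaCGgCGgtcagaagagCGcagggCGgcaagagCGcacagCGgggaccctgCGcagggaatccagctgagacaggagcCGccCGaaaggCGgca

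These windows held 12 CpG for Chd4 (102 FPKM, mean of 4 libraries), 25 for Smarca4 (77.4 FPKM), 21 for Chd5 (2.48 FPKM) and 23 for Arid3c (1.41 FPKM). The window of Arid5b, the least abundant gene of the set (0.653 FPKM), is not printed and held 4 CpG, as did that of Smarcd2, the fewest of the 28. However, the RefSeq start sites used for Smarcd2, Smarcc1 and Smarcd3 lay 5340, 14316 and 22409 bases inside the annotated genes. These 3 windows may therefore not be the main promoters. CpG-rich promoters were common in the set: 20 of 28 windows held at least 15 CpG, against 27.5% of windows over 27025 RefSeq genes. The latter include noncoding genes and genes outside the expression table, while all 28 are in that table. No comparison with expressed genes alone was made, so the excess is not shown to be particular to the set. The median was 19.5 CpG in the 28 windows and 6 over all. The median GC content was 62.6% and 52.0%. CCAAT, searched on both strands, stood in 9 of 28 windows (32.1%, against 34.5% over all), TATAAA in 2 (7.14% against 13.0%), CCGGAAG in 4 (14.3% against 7.05%) and AAGATGGC in 1 (3.57% against 1.59%). The 2 windows with TATAAA were those of Arid5b and Smarcd2. None of the 4 windows printed held any of these 4 motifs. A match or its lack is a description of letters in the window.

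Most of the set had transcript levels above the table's median. The median over the 38 genes was 13.6 FPKM, against 7.79 FPKM over all 15429 genes, and 28 of 38 lay above the latter. Averaged over the 4 libraries, 4 genes exceeded 50 FPKM, 10 lay between 20 and 50, 22 between 1 and 20, and 2 below 1. The most abundant were Chd4 (102 FPKM), Smarcd1 (83.0 FPKM), Smarca4 (77.4 FPKM) and Smarcc1 (66.1 FPKM), and the least abundant Arid3c (1.41 FPKM), Arid5a (0.815 FPKM) and Arid5b (0.653 FPKM). In the order of levels, the ranges over the 4 libraries overlapped for 22 of 37 pairs of neighbours, Smarcd1 and Smarca4 among them. Chd4 stood apart from Smarcd1, and Smarcc1 from Arid1a. The plot of FPKM by library shows this order within each family.

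**Figure D1:**
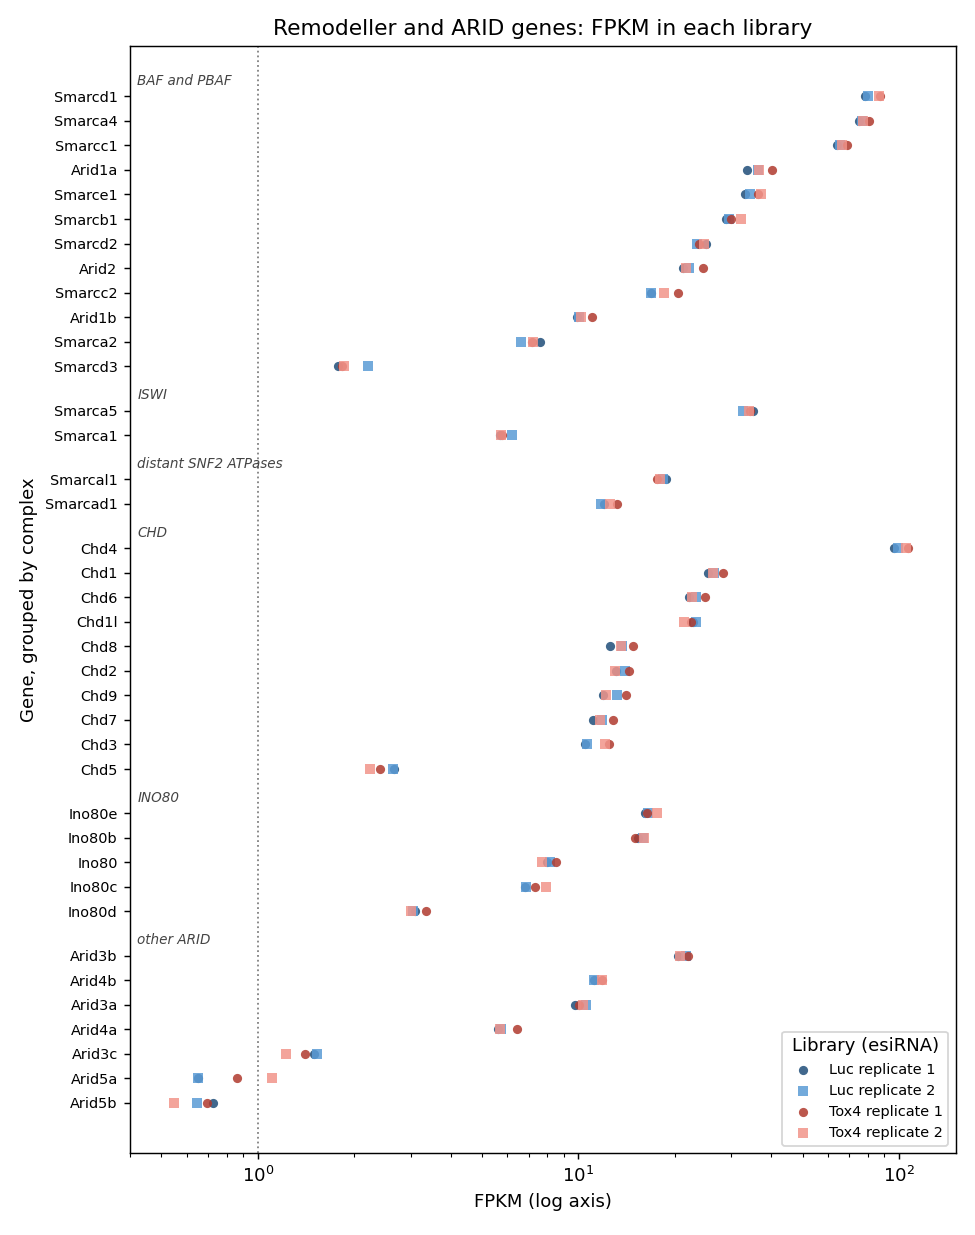
FPKM of the 38 genes in each library on a log axis, grouped by family, with Luc libraries in blue and Tox4 libraries in red; the dotted line marks 1 FPKM, the mean needed for a test. Chd4 at 102 FPKM and Arid5b at 0.653 FPKM (means of 4 libraries) mark the ends of the range, and for 22 of 37 neighbours in the order of levels the points of both genes overlap.

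The BAF family was dominated by 1 paralog of each pair in all 4 libraries. Smarca4, the Brg1 ATPase, was at 75.1 and 76.7 FPKM in the Luc libraries and at 80.4 and 77.3 FPKM in the Tox4 libraries. Smarca2, the Brm ATPase, was at 7.57 and 6.64 FPKM with Luc and at 7.19 and 7.19 FPKM with Tox4. Smarca2 thus made up 8.56% ± 0.849 of the pair's FPKM with Luc and 8.35% ± 0.216 with Tox4 (SD, n = 2 each). The core scaffold gene Smarcc1 was at 64.0, 65.2, 68.9 and 66.3 FPKM in Luc 1, Luc 2, Tox4 1 and Tox4 2, and Smarcc2, its paralog, at 16.8, 16.8, 20.5 and 18.5 FPKM. The share of Smarcc2 was 20.8% and 20.5% with Luc and 22.9% and 21.8% with Tox4, so that the groups did not overlap. Arid1a, the large DNA-binding subunit of canonical BAF, was at 33.7, 36.4, 40.2 and 36.5 FPKM. Its paralog Arid1b was at 9.90, 10.04, 10.99 and 10.2 FPKM and held 22.2% ± 0.778 with Luc and 21.6% ± 0.220 with Tox4. No test was run on these shares or on those of the next paragraph; an exact two-sided permutation test of 2 libraries against 2 cannot go below 0.33.

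The ISWI and NuRD pairs were as uneven. Smarca5 (Snf2h) was at 34.9, 32.7, 34.4 and 33.9 FPKM and Smarca1 (Snf2l), which is known from neurons and gonads, at 5.69, 6.20, 5.78 and 5.72 FPKM. Smarca1 held 14.98% ± 1.37 with Luc and 14.4% ± 0.00935 with Tox4 (SD, n = 2 each). Of Chd3 plus Chd4, Chd3 held 9.76% and 9.67% in the Luc libraries and 10.4% and 10.3% in the Tox4 libraries. The Luc and Tox4 values of this share did not overlap, and its SD was 0.0632 with Luc and 0.0635 with Tox4. Among the Smarcd paralogs, Smarcd1 was at 83.0 FPKM, Smarcd2 at 24.2 FPKM and Smarcd3, known as the paralog of heart and neurons, at 1.92 FPKM (means of 4 libraries). Smarcd3 is uncertain, because 2466 bases of its exons overlap Chpf2 and Mir671 on the opposite strand and the use of strand in counting is not given in the sources used here.

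**Figure D2:**
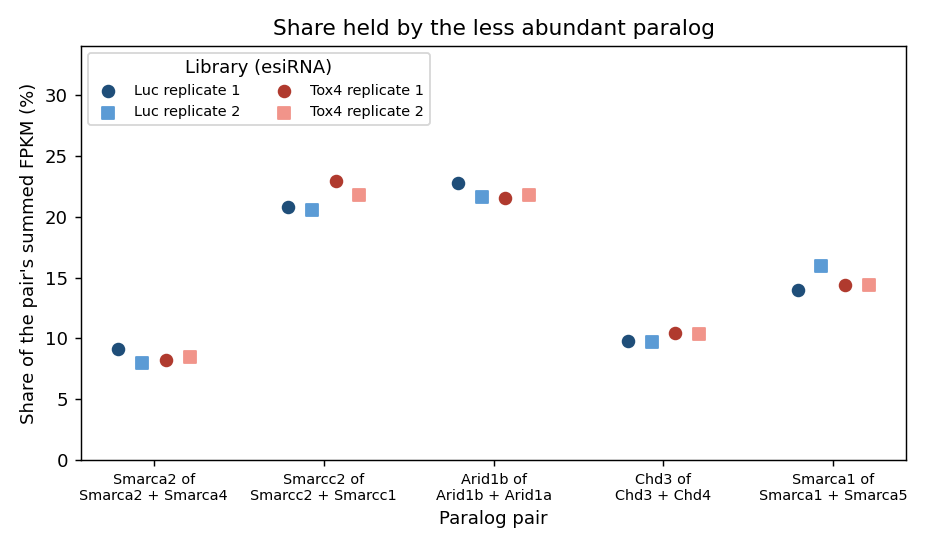
Share of a pair's summed FPKM held by the less abundant paralog, 1 point per library, in percent from 0. Shares run from 7.96% (Smarca2, Luc replicate 2) to 22.9% (Smarcc2, Tox4 replicate 1), and for Chd3 and Smarcc2 both Tox4 points lie above both Luc points.

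The comparison of Tox4 with Luc esiRNA asked which transcripts differ after Tox4 knockdown. A mean of at least 1 FPKM was needed for the test, which 36 of the 38 genes had. None of the 36 rose and none fell (limma on log2(FPKM + 1), two-sided, adjusted p under 0.05 over the 12403 genes tested), where 4.51% of all tested genes were called, 1.89% as higher and 2.62% as lower. Among the 36, the smallest adjusted p was 0.0851. At an unadjusted p under 0.05 there were 5 genes, all with higher values in the Tox4 libraries, against 21.6% of all tested genes, 10.0% as higher and 11.5% as lower. In limma-voom on the recovered reads, 4 of the 36 passed, all as higher, where 11.8% of all tested genes passed, 5.97% as higher and 5.87% as lower. In both directions together neither count exceeded that background, and among higher values alone both lay above it. Bulk RNA cannot tell a change in the make-up of the culture from a change in RNA per cell.

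The differences were small and most were above 0. The log2 fold change, which the added pseudocount of 1 shrinks for genes of low level, was above 0 in 29 of 36 genes, against 48.8% of all tested genes, with a median of 0.06 against -0.0034. The range was -0.13 (Chd5) to 0.20 (Chd3). Across the 36 genes the 95% intervals ended at 0.34 at the highest, for Smarcc2, and at -0.40 at the lowest, for Arid3c. In 13 genes both Tox4 libraries lay above both Luc libraries, against 25.3% of all tested genes, and in 4 both lay below, against 26.7%. Most lists of partner genes, read further below, leaned above 0 as well. The intervals of the 36 genes are drawn in the plot of differences by gene.

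**Figure D3:**
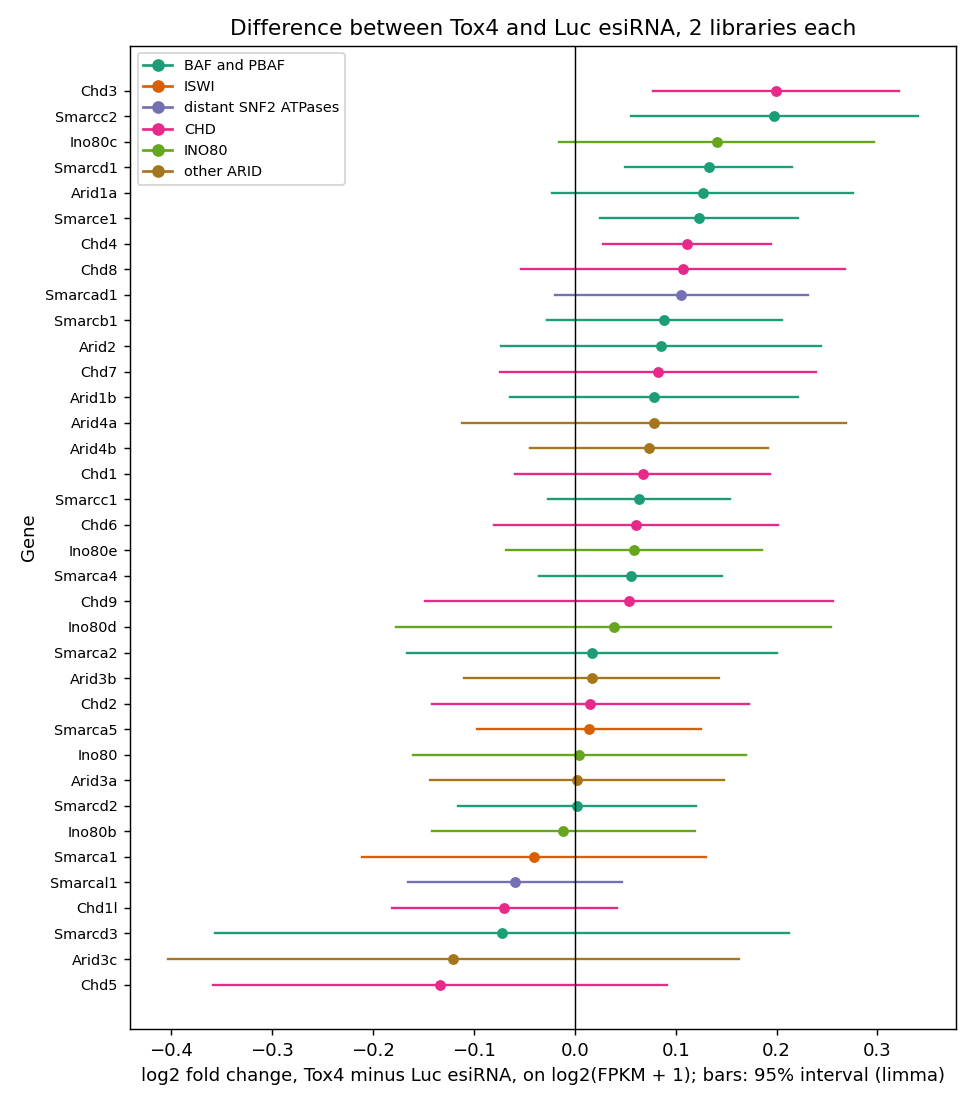
Log2 fold change of the 36 tested genes, Tox4 minus Luc esiRNA, on log2(FPKM + 1), with the 95% interval of limma as a bar and colour by family. Only Chd3, Smarcc2, Smarcd1, Smarce1 and Chd4 have intervals that leave out 0 before adjustment, and none passed after it.

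Chd3 and Chd4 encode the Mi-2 ATPases of NuRD, which joins nucleosome remodelling to histone deacetylation. Chd3 (ENSMUSG00000018474, chromosome 11, 69343273 to 69369406, minus strand, GRCm38) was at 10.5 and 10.7 FPKM in the Luc libraries and at 12.4 and 12.1 FPKM in the Tox4 libraries. Both Tox4 values lay above both Luc values, with a ratio of means 16.2% above 1. On the log2 scale the difference was 0.20, with a standard error of 0.05 and a 95% interval of 0.08 to 0.32. The adjusted p was 0.0851 in limma and 0.00594 in limma-voom. Chd4 (ENSMUSG00000063870, chromosome 6, 125095981 to 125130591, plus strand) was at 96.7 and 99.5 FPKM with Luc and at 107 and 105 FPKM with Tox4, again without overlap. The log2 difference was 0.11, with an interval of 0.03 to 0.19 and an adjusted p of 0.130 in limma and 0.0219 in limma-voom. Both genes were therefore past the threshold in 1 of the 2 models only.

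Chd5, the third gene of this subfamily, is known from neurons and testis. It was at 2.65 and 2.63 FPKM with Luc and at 2.41 and 2.24 FPKM with Tox4, lower in both Tox4 libraries, with a log2 fold change of -0.13 (interval -0.36 to 0.09, limma adjusted p = 0.466). The 3 genes thus had 2 positive values and 1 negative. Whether Chd3 and Chd5 differ in their response was not tested.

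Smarcc2, Smarcd1 and Smarce1 encode core subunits of BAF and PBAF. Smarcc2 (ENSMUSG00000025369, chromosome 10, 128459248 to 128490482, plus strand) was at 16.8 FPKM in both Luc libraries and at 20.5 and 18.5 FPKM in the Tox4 libraries, a log2 difference of 0.20 with an interval of 0.06 to 0.34 (adjusted p = 0.121 in limma and 0.0152 in limma-voom). The Tox4 libraries differed from each other by more than the lower of them differed from Luc, and the log2 fold change was 0.13 without Tox4 replicate 1 and 0.27 without Tox4 replicate 2. Smarcd1 (ENSMUSG00000023018, chromosome 15, 99702129 to 99713991, plus strand) was at 78.0 and 80.2 FPKM with Luc and at 87.1 and 86.6 FPKM with Tox4 (0.13, SE 0.03, interval 0.05 to 0.22, limma adjusted p = 0.0894; limma-voom adjusted p = 0.0250). Its exons share 511 bases with Gm17349 and Gm34939 on the opposite strand. Smarce1 (ENSMUSG00000037935, chromosome 11, 99209047 to 99231017, minus strand) was at 33.0 and 34.3 FPKM with Luc and at 36.4 and 37.1 FPKM with Tox4 (0.12, SE 0.04, interval 0.02 to 0.22). It passed in neither model, with an adjusted p of 0.151 in limma and 0.0919 in limma-voom.

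For the other 9 BAF and PBAF genes the interval of the log2 fold change included 0. In all, 11 of the 12 had a value above 0, against 48.8% of all tested genes, with a median of 0.08. In 8 of the 12 both Tox4 libraries lay above both Luc libraries, against 25.3% of all tested genes. Smarca4 was at 0.06 (interval -0.04 to 0.15, limma adjusted p = 0.452), Smarcc1 at 0.06, Smarcb1, the Snf5 tumour suppressor subunit, at 0.09 and Arid1a at 0.13 (interval -0.02 to 0.28). Smarca2 was at 0.02, with a wider interval of -0.17 to 0.20, and its 2 Luc libraries lay further apart than its Tox4 libraries. Arid2, the ARID subunit of PBAF, was at 0.09, Arid1b at 0.08, Smarcd2 at 0.0019 and Smarcd3 at -0.07.

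For the remaining ATPases of the CHD family the interval of the log2 fold change included 0. Chd1, which binds methylated histone H3 at active genes, was at 0.07 (25.9 ± 0.860 FPKM with Luc and 27.2 ± 1.42 with Tox4; SD, n = 2 each). Chd8, a large CHD protein known from autism genetics, was at 0.11 (interval -0.05 to 0.27). Chd7, the CHARGE syndrome gene, was at 0.08, Chd6 at 0.06, Chd9 at 0.05 and Chd2 at 0.02. Chd1l, which is recruited by poly(ADP-ribose) in DNA repair, was at -0.07, with 22.8 and 23.3 FPKM with Luc and 22.5 and 21.4 FPKM with Tox4. In 8 of the 10 CHD genes the highest value of all 4 libraries was in Tox4 replicate 1.

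In the ISWI pair the groups overlapped, with Smarca5 at 0.01 (interval -0.10 to 0.13) and Smarca1 at -0.04 (interval -0.21 to 0.13). The 2 distant SNF2 ATPases lay on opposite sides of 0. Smarcad1, which acts in heterochromatin and at DNA ends, was at 12.0 and 11.8 FPKM with Luc and at 13.2 and 12.6 FPKM with Tox4 (0.11, limma adjusted p = 0.305). Smarcal1, which anneals DNA strands at stalled replication forks, was at 18.7 and 18.3 FPKM with Luc and at 17.5 and 17.9 FPKM with Tox4 (-0.06, adjusted p = 0.492).

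Of the 5 INO80 genes, the ATPase gene Ino80 was at 7.96 and 8.16 FPKM with Luc and at 8.51 and 7.68 FPKM with Tox4, a log2 fold change of 0.0042 (interval -0.16 to 0.17). The subunit gene Ino80c had the highest value of the family, 0.14 (6.79, 6.84, 7.33 and 7.91 FPKM, limma adjusted p = 0.276), and Ino80b the lowest, -0.01. Ino80e was at 0.06, with 1253 bases of its exons shared with Doc2a and Hirip3 on the opposite strand, and Ino80d at 0.04.

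ARID proteins outside BAF bind AT-rich DNA or sit in Sin3 deacetylase complexes. For the 5 of them that were tested, the interval of the log2 fold change included 0. Arid4a and Arid4b, of the Sin3 complex, were at 0.08 and 0.07 and Arid3a and Arid3b at 0.0022 and 0.02. Arid3c was at -0.12 (1.50, 1.53, 1.40 and 1.22 FPKM, interval -0.40 to 0.16) and at -0.19 in limma-voom. Arid5a, which encodes an RNA-binding protein that stabilizes immune transcripts, did not reach the mean needed for the test. It was at 0.652 and 0.648 FPKM with Luc and at 0.858 and 1.10 FPKM with Tox4, on at least 51, 40, 52 and 58 reads, and both Tox4 values were higher. With the filter removed its log2 fold change was 0.26 (limma adjusted p = 0.451). Arid5b, the other gene below the filter, was at 0.723, 0.647, 0.695 and 0.548 FPKM, with overlapping groups.

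One library, Tox4 replicate 1, held the highest value of the 4 for 21 of the 36 tested genes, against 26.1% of all tested genes. The genes of the set are long, with a median of 5892.5 bases for the longest annotated transcript over the 38, and the pattern moved with length. Among the 18 tested genes whose longest transcript was at or above the median of the 36, Tox4 replicate 1 was highest in 14, and among the 18 shorter ones in 7. Outside the set the same split gave the same order: Tox4 replicate 1 was highest in 53.2% of 1758 other tested genes of at least that length and in 21.5% of 10505 shorter ones. The log2 fold change was above 0 in 59.8% of those long genes and in 46.9% of the short ones, and in 17 and 12 of the 18 long and 18 short genes of the set. Without Tox4 replicate 1 the median of the 36 was 0.02, with 23 above 0, and without Tox4 replicate 2 it was 0.09, with 27 above 0. The part of gene length in these values was not tested.

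**Figure D4:**
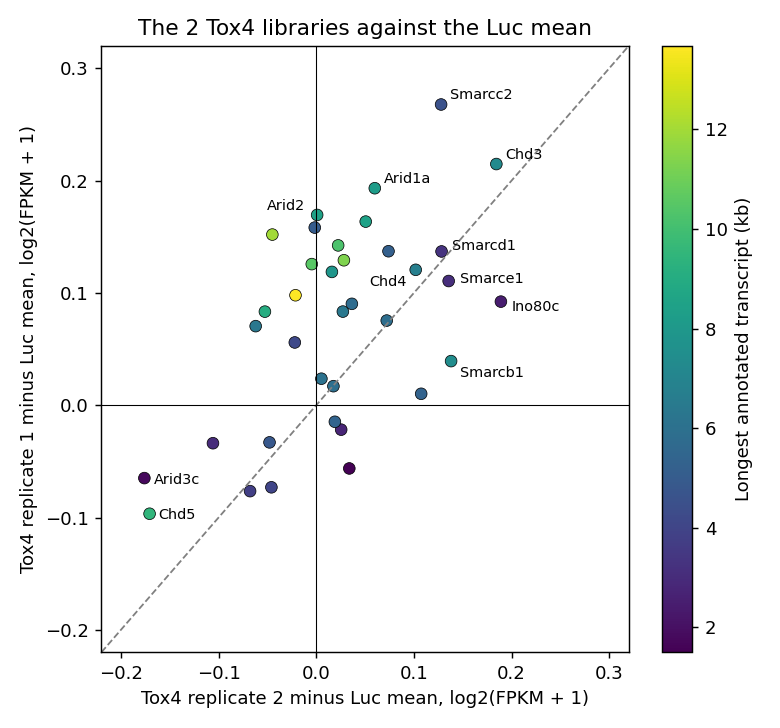
Each tested gene's difference from the Luc mean in Tox4 replicate 2 (horizontal) and in Tox4 replicate 1 (vertical), on log2(FPKM + 1), coloured by the longest annotated transcript in kb; the dashed line marks equal values. Of 36 genes, 26 were higher in Tox4 replicate 1 than in replicate 2 and lie above the line, among them most of the long genes, while Chd3, Smarcd1 and Smarce1 lie close to it.

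Partners of these ATPases were taken from lists of complex subunits that the name rule does not reach. In the BAF and PBAF list, 1 of 16 tested genes fell, none rose and 15 did not pass (limma, over all genes). Of all tested genes, 4.51% were called, 2.62% as lower, so 1 call in a list of 16 is near that background. The gene that fell was Phf10 (ENSMUSG00000023883, chromosome 17, 14945009 to 14961273, minus strand), a PHD-finger subunit of PBAF and of the BAF form of neural progenitors. It was at 55.0 and 52.0 FPKM with Luc and at 42.9 and 43.3 FPKM with Tox4, well apart, a log2 difference of -0.31 ± 0.04 (SE) with an adjusted p of 0.0199 in limma. Phf10 also passed in limma-voom (adjusted p = 4.63e-05) and in limma with no filter (0.0352) or a mean of at least 5 FPKM (0.0047). It did not pass in limma with no intensity trend (adjusted p = 0.0789). With 1 library left out its log2 fold change was -0.34 to -0.27. Its exons share 470 bases with 1600012H06Rik on the opposite strand.

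In developing neurons Phf10, Actl6a and Ss18 give way to Dpf1, Dpf3, Actl6b and Ss18l1, so these genes were read side by side. Dpf1 was at 3.83 and 3.84 FPKM with Luc and at 4.54 and 4.61 FPKM with Tox4 (0.20, limma adjusted p = 0.176). Ss18l1 was at 3.41 and 3.62 FPKM with Luc and at 2.93 and 2.73 FPKM with Tox4 (-0.24, adjusted p = 0.189), in the other direction. Actl6a was at 0.10 and Ss18 at -0.02. Dpf3 had a mean under 1 FPKM and was not tested, and Actl6b had no entry under that symbol in the expression table. Of 7 neuroectoderm markers 6 were tested, of which Sox1, Fabp7 and Ncam1 rose, 3 did not pass and none fell. Of all tested genes, 1.89% were called as higher. Sox1 went from 5.28 and 5.57 FPKM with Luc to 12.3 and 13.7 FPKM with Tox4 (limma adjusted p = 0.00263). Fabp7 went from 5.07 and 4.96 to 10.0 and 9.36 FPKM (limma adjusted p = 0.00407). Ncam1 went from 14.2 and 14.1 to 18.9 and 17.5 FPKM (limma adjusted p = 0.0285). The summed level of all 7 was 93.4 and 92.6 FPKM with Luc and 107 and 108 FPKM with Tox4. The largest part of this sum was Nes, which did not pass, at 49.8 to 52.7 FPKM. Pax6, a defining marker, stayed at 0.112 to 0.778 FPKM, on at least 5, 4, 1 and 6 reads. Of 11 trophoblast and extraembryonic endoderm markers 5 were tested. Sparc, Krt18 and Krt8, genes also active in other epithelial or matrix-forming cells, fell in limma, where 2.62% of all tested genes were called as lower. Eomes and Tfap2c did not pass in limma, while Eomes passed as lower in limma-voom (adjusted p = 0.0298). In all 5 both Tox4 libraries lay below both Luc libraries, against 26.7% of all tested genes. Summed over the 7 markers present in the expression table, the level was 197 and 202 FPKM with Luc and 152 and 158 FPKM with Tox4. The defining endoderm markers Gata6 (0.526 to 0.915 FPKM) and Sox17 (0.501 to 1.22 FPKM) stayed below a mean of 1 FPKM with overlapping groups. Cdx2, Elf5, Gata4 and Sox7 had no entry under those symbols in the expression table. The part of these markers in the values of the remodellers was not tested.

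No gene of the other partner lists passed in limma. A log2 fold change above 0 was found in 9 of 9 ISWI partners, 10 of 12 NuRD partners and 11 of 16 BAF and PBAF partners. The count was 7 of 10 for other SNF2 ATPases, 3 of 4 for other ARID proteins and 9 of 17 for INO80, SRCAP and TIP60. Of all tested genes, 48.8% had such a value. Tox4 replicate 1 was the highest library in 7 of 9 ISWI partners, 8 of 10 other SNF2 ATPases and 4 of 4 other ARID proteins. It was highest in 6 of 12 NuRD, 6 of 16 BAF and PBAF and 6 of 17 INO80, SRCAP and TIP60 entries. Over all tested genes this share was 26.1%. The part of that library and of gene length in these counts was not tested. Of 9 ISWI partners, Cecr2, a bromodomain partner of ISWI ATPases, was at 0.19 (limma adjusted p = 0.139) and the Williams syndrome gene Baz1b at 0.13 (adjusted p = 0.247), and Cecr2 passed in limma-voom (adjusted p = 0.00987). Of 12 NuRD partners, the metastasis-associated gene Mta1 and the histone-binding gene Rbbp7 were both at 0.07. Of 17 entries for INO80, SRCAP and TIP60 subunits, with Srcap under 2 identifiers, the deubiquitinase gene Uchl5 was at -0.21 (adjusted p = 0.154) and the actin-related gene Actr5 at 0.09. Of 10 other SNF2 ATPases, Btaf1 was at 0.13 and Rad54b at -0.11. Of 4 other ARID proteins, Jarid2, a cofactor of Polycomb, was at 0.11 (adjusted p = 0.144) and Kdm5c at 0.03. At an unadjusted p under 0.05 there were 3 genes in the BAF and PBAF list (Phf10, Dpf1 and Ss18l1), 1 in each of the ISWI, INO80 and ARID lists and none in the NuRD and SNF2 lists, where 21.6% of all tested genes had such a p.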

How the data were processed

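Polyadenylated RNA was measured in 4 libraries, grouped by their titles. The authors deposited FPKM values for 15429 genes. The submitters' processing notes name CASAVA 1.8, STAR 2.3.0e and the build GRCm38.p1, while the counting program, its annotation and its strand setting are not named there. Whole reads were worked back from the FPKM values as the fewest reads that give whole gene lengths and depths, so a gene's true reads may be a common multiple of them. Their totals were 97.7% of the depth implied by the scaling.

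Differences were tested with limma 3.58.1 in R 4.3.3 on log2(FPKM + 1), two-sided, with an intensity trend, for the 12403 genes whose mean over the libraries reached 1 FPKM. The fit used all 4 libraries and no covariate, with Benjamini-Hochberg adjustment over all genes at a threshold of 0.05. The fit was tested on simulated data, where the share of false calls exceeded the nominal one. Alternatives were pseudocounts of 0.1 and 0.5, no filter, a mean of at least 5 FPKM, median centring, quantile normalization, no trend, a replicate block, limma-voom on the recovered reads and each library left out. The name rule, the members and the lists were chosen with earlier results of these data known. Genes were named by rule: genes past the threshold, every ATPase, both genes of each paralog pair, the extremes of each family and of the level order, and, in each partner list, genes past the threshold or the 2 of smallest p. Others named were chosen after their values were seen. Coordinates and transcript lengths came from GENCODE M21 (GRCm38), which held 15223 of the identifiers.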

Additional observations from a re-analysis of the deposited data

How the results depend on the processing

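No remodeller or ARID gene passed under 12 of the 13 alternatives; in limma-voom on the recovered reads 4 passed as higher (Chd3, Chd4, Smarcc2 and Smarcd1) and 0 as lower. The cause was not tested. Of the 36 tested genes, 18 had a log2 fold change above 0 in every setting that gave a value and 4 below 0, while 14 took both signs. Among all tested genes, 234 were higher and 325 lower. These counts were 740 and 728 in limma-voom, 146 and 202 with no filter, 33 and 45 with no intensity trend, and 365 and 476 with a mean of at least 5 FPKM. With 1 library left out, which leaves the lone library of a group assumed to vary like the other group, 27 to 176 were higher and 34 to 296 lower, and the median log2 fold change of the 36 was 0.0208 (without Tox4 replicate 1) to 0.0869 (without Tox4 replicate 2). With a replicate block, none of the 36 passed and 222 and 334 genes were higher and lower; with 2 pairs the numbers are not shown to pair the libraries (correlation of the replicate differences across 12403 genes -0.04). As shares of reads, not per length, Smarcc2 held 18.1%, Arid1b 31.4%, Chd3 10.3% and Smarca1 13.4% of their pairs, and the value of Arid1b is uncertain because the reads of Arid1a may be a multiple of those recovered. With 2 libraries a group, and 28 reads in a library for the least covered tested gene, Arid3c, small changes of low genes were not detectable.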
